A study of Mus musculus with 4 samples.

Results

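The regions described here are clusters of AGO2-bound reads whose midpoint lies in the 5' untranslated region (5' UTR, or leader) of a protein-coding mouse transcript, on the transcript's strand and outside any coding sequence (CDS) or 3' UTR. AGO2 is the Argonaute protein that holds a miRNA and binds target RNA. Crosslinked AGO2 was immunoprecipitated with its RNA (eCLIP); the tissue was whole brain, taken at postnatal day 0 from C57BL/6 mice. One group was wild type and the other was labelled FMR1 ko, and each had 1 immunoprecipitate (IP) scored against its own size-matched input. The labels give no allele for the knockout, and they do not say how many brains went into a library. By GENCODE annotation of mm10, 1539 of 46860 regions of the wild-type IP (3.28%) were 5' UTR regions, as were 3551 of 86106 regions of the knockout-labelled IP (4.12%). In the series table, which compares both IPs directly, 1539 of 46862 regions qualified. The regions of this table were 5' UTR regions of the wild-type file in 1538 cases.

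The leader is the stretch that the small ribosomal subunit scans from the cap to the start codon. Its length, its structure, upstream reading frames and bound proteins are known to set how often a coding sequence is translated. Argonaute sites with matches to a miRNA seed, the bases near the miRNA's 5' end that start pairing, are best known from 3' UTRs. Sites in leaders are fewer and less well described. FMRP, the product of Fmr1, is an RNA-binding protein of neurons that represses translation.

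The sites shown first are matches to a miRNA seed inside enriched 5' UTR regions, chosen because each lay in an enriched region of both libraries. Enriched means an IP-over-input log2 of 3 or more with a -log10 p of 3 or more in the authors' scores. Each stretch has 30 bases of the mm10 transcript strand, 5' to 3', and the capitals mark the bases that pair with miRNA bases 2 to 8.
Sqle, miR-9 site, chr15:59315813-59315842, plus strand: tggctggtgccACCAAAGaagccttttgag
Snn, miR-9 site, chr16:11072280-11072309, plus strand: aagagctttccACCAAAGaagcccctccaa
Kctd13, miR-125 site, chr7:126928981-126929010, plus strand: agtcgcgggatCTCAGGGaaccggaccggg
Eef1b2, miR-19 site, chr1:63177171-63177200, plus strand: cgtcctccgctTTTGCACagctccccgttc
Trp53inp2, let-7 site, chr2:155381972-155382001, plus strand: cggccgcacaaCTACCTCagcgcagcggtt
Igf2, let-7 site, chr7:142659235-142659264, minus strand: tcctcctctatCTACCTCaacaccccattc
Clstn1, miR-15/16 site, chr4:149586626-149586655, plus strand: gcgcgactcccTGCTGCTtccgcgtcgggc

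The mature miRNAs that carry these seeds are given from RefSeq (GRCm38.p6), with bases 2 to 8 in capitals.
mmu-miR-9-5p: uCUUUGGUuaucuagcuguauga
mmu-miR-125b-5p: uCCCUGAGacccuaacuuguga
mmu-miR-19a-3p: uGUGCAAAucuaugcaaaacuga
mmu-let-7a-5p: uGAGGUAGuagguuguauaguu
mmu-miR-15a-5p: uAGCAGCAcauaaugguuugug

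The files hold regions and scores, and the read counts given here were recovered from those scores. By those scores the wild-type input had 6.34 times the reads of its IP and the knockout-labelled input 1.92 times, while between the IPs the knockout-labelled one had 2.28 times the reads of the other. The median 5' UTR region held 4 IP reads in wild type and 5 in the other library, so most single regions carry wide intervals. All intervals are exact (Clopper-Pearson, 95%) and cover counting error only. Those of shares treat each region as independent, although some regions abut or lie on the same gene, so they may be too narrow. Each genotype has 1 library, which allows no test between genotypes, and a p on the reads of 2 libraries compares those libraries, not the genotypes. In whole tissue, fewer cells of a type and less RNA per cell cannot be told apart. Fmr1 itself had no 5' UTR region in wild type and 1 in the other library, at chrX:68678727-68678834 and 36 bases before the start codon. It had 11 IP reads against 6 input reads and a log2 of 1.81 (0.25 to 3.53), so it was not enriched. None of the 2 Fmr1 regions of the wild-type library and the 5 of the knockout-labelled library was enriched, and whether the leader lies outside the deleted part is not given by the labels, so these reads check nothing about the genotype. Of 7 neuron markers, 5 had a 5' UTR region in wild type and 7 in the other library. Of 7 neural progenitor markers none (wild type) and 2 (knockout-labelled) had one, as did none and 1 of 6 markers of the oligodendrocyte lineage. Markers of astrocytes, microglia, endothelial and mural cells and erythroid cells had none in either library. Over all genes with any mRNA region, 14.9% (wild type) and 28.6% (knockout-labelled) had a 5' UTR region. Some markers had no mRNA region of any kind. Only 2 of the 6 oligodendrocyte markers had one in wild type, and 1 of 5 microglia markers in each library. The counts are too small to set these cell types apart from all genes.

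AGO2 5' UTR regions were enriched over input more often than CDS regions and less often than 3' UTR regions in wild type. There 475 of 1539 passed (30.9%, 28.6 to 33.2), beside 24.1% of all regions, 21.2% of CDS regions and 37.2% of 3' UTR regions. Of the knockout-labelled regions 158 of 3551 passed (4.45%, 3.79 to 5.18), beside 3.08% of all regions, 1.65% of CDS regions and 9.01% of 3' UTR regions. The order of the 3 kinds was thus the same in both libraries, at different levels. The limits are met with different numbers of reads, because the inputs differ in depth. With 1 input read, 5 IP reads were enough in wild type and 9 were needed in the knockout-labelled library. The part of this depth gap in the different shares was not tested. The lowest recovered input was 1 read, in 716 wild-type and 1181 knockout-labelled 5' UTR regions, and whether it stood for none cannot be told apart.

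The 5' UTR regions fell on 978 genes in wild type and 2381 in the other library, with 575 genes in both. Enriched regions fell on 345 and 127 genes, with 36 in both. Most genes had 1 region, 576 of them in wild type and 1597 in the other library. Some regions abut, and joined where they touched they formed 1196 and 3155 sites.

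Within the leader, the regions lay nearer the start codon than the transcript start. The median midpoint was 123 bases before the start codon and 184 bases after the transcript start in wild type, and 118 and 165 bases in the knockout-labelled library. Regions sat in long leaders: the median length over regions was 365 bases in wild type and 338 in the other library, against 171 over 20692 annotated genes. Medians over regions count a leader once for each of its regions, while the median over genes counts it once. Longer leaders also offer more bases for a midpoint, and the part of both in this gap was not tested. The last 50 bases before the start codon held 24.4% of wild-type regions (22.2 to 26.6) and 24.6% of knockout-labelled regions (23.1 to 26.01). The first 50 bases held 10.2% (8.73 to 11.8) and 10.8% (9.76 to 11.8). A stretch of 50 bases at one end was on average 18.3% and 19.3% of these leaders, so the share near the start codon was above it and the share near the transcript start below it in both libraries. Among enriched knockout-labelled regions alone, the share near the start codon was 16.5% (11.04 to 23.2), beside 16.3% of the leader, so it was not above it there. Regions were placed by their midpoints, so one near either end may run past the leader, into the CDS or before the annotated transcript start. The part of this in both shares was not tested. The first base of the start codon lay inside 137 wild-type regions (8.90%) and 484 knockout-labelled regions (13.6%). First exons held 86.2% of the regions in wild type and 86.4% in the other library, although 47.4% and 48.2% of regions lay in leaders of several exons.

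**Figure D1:**
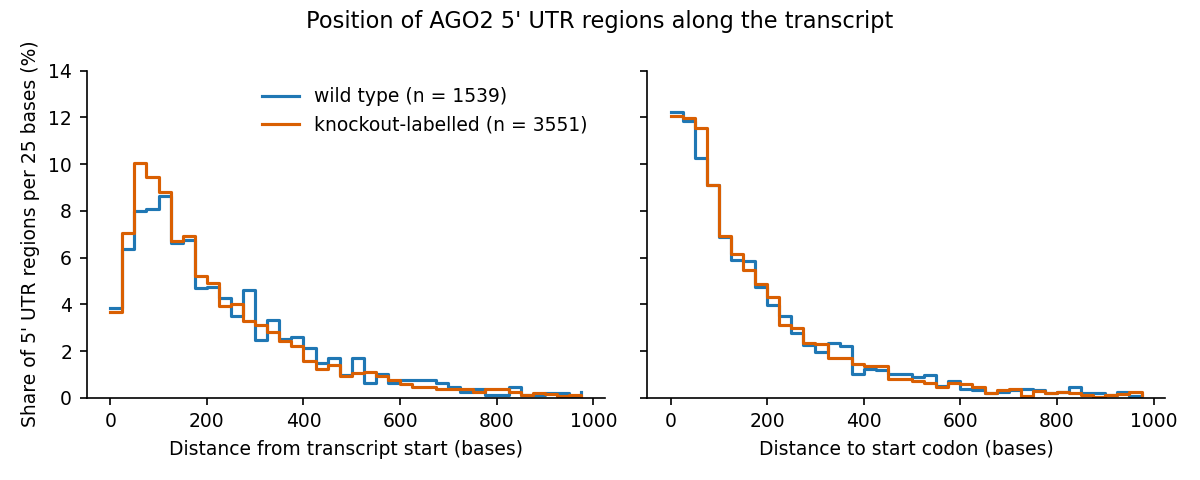
Share of 5' UTR regions in steps of 25 bases from the transcript start (left) and to the start codon (right) along the spliced main transcript, for the 1539 wild-type and 3551 knockout-labelled regions; distances over 1000 bases are not drawn. The curves of both libraries lie close together, with few regions in the first 25 bases of the transcript (3.83% and 3.69%) and 12.7% and 12.5% within 25 bases of the start codon.

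Enrichment did not follow the distance to the start codon in a steady way. In wild type, 31.1% of regions within 25 bases of the start codon were enriched (24.7 to 38.1), against 40.0% of those more than 400 bases away (33.2 to 47.1), and the intervals overlap. In the knockout-labelled library the shares were 1.80% (0.779 to 3.51) and 7.31% (5.02 to 10.2). The second pair of intervals does not overlap, but it rests on 1 gene and on small RNA genes. Without Igf2 and regions on small RNA genes, the share more than 400 bases away was 4.16% (2.44 to 6.57). This overlaps the interval of the nearest regions, whose share was then 1.81% (0.785 to 3.54). The low share next to the start codon thus remained without them. It was still below the highest share of the 6 steps, 5.34% (3.91 to 7.10), with intervals that do not overlap. The intervals of the remaining steps overlap that of the nearest regions. The regions nearest the start codon also had the lowest median GC content of the 6 steps in the knockout-labelled library, 66.7% against 73.9% in the step with the highest.

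**Figure D2:**
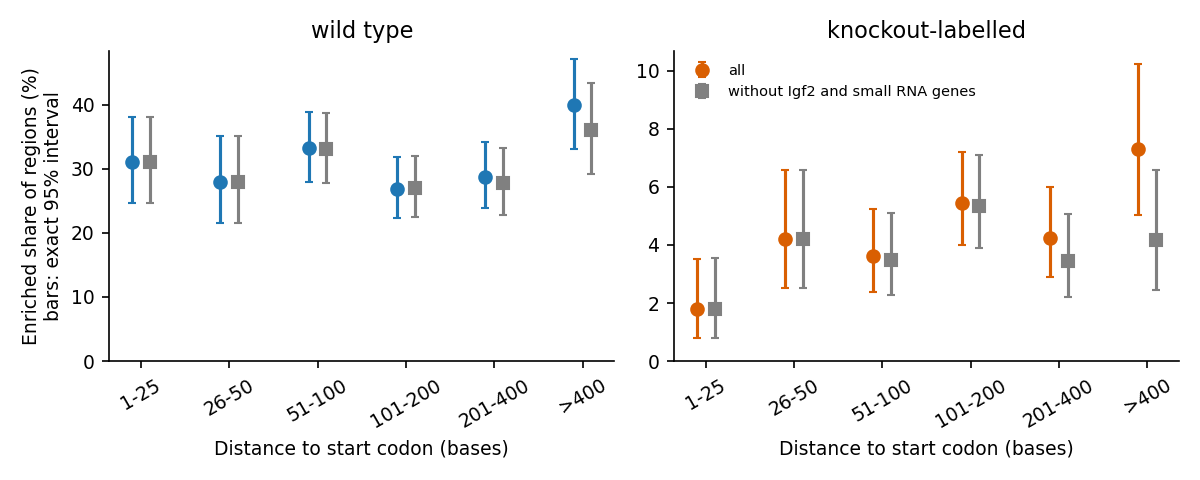
Share of 5' UTR regions that were enriched over input, by distance to the start codon in bases, in wild type (left) and the knockout-labelled library (right, on another scale). Coloured circles are all regions, grey squares leave out Igf2 and small RNA genes, and bars are exact 95% intervals. In the knockout-labelled library the step beyond 400 bases goes from 7.31% to 4.16% without them.

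The strongest 5' UTR regions of both libraries lay on Igf2, the insulin-like growth factor 2 gene, an imprinted growth factor gene of the embryo. Its leader of 1099 bases, in transcript ENSMUST00000121128.7, held 16 regions in each library, and all of them were enriched. They formed 2 groups with no region between them. The midpoints of one group lay 106 to 297 bases from the transcript start and those of the other 707 to 874 bases from it, both libraries together. In wild type the group near the transcript start ran from a log2 of 8.20 to 11.73, and the group near the CDS from 6.13 to 7.59. For the knockout-labelled regions the ranges were 6.27 to 7.61 and 4.64 to 7.07. The upstream group was therefore the higher one in wild type, with no overlap, while the groups overlapped in the knockout-labelled library. The highest wild-type region, chr7:142659362-142659389, had 536 IP reads against 1 input read, a log2 of 11.73 (9.25 to 17.04). Its sequence on the transcript strand is shown for its base composition of 82.1% GC, with runs of at least 3 G or C in capitals.
Igf2, 28 bases: cagcgcctccatccGGGctggcggCCCC

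**Figure D3:**
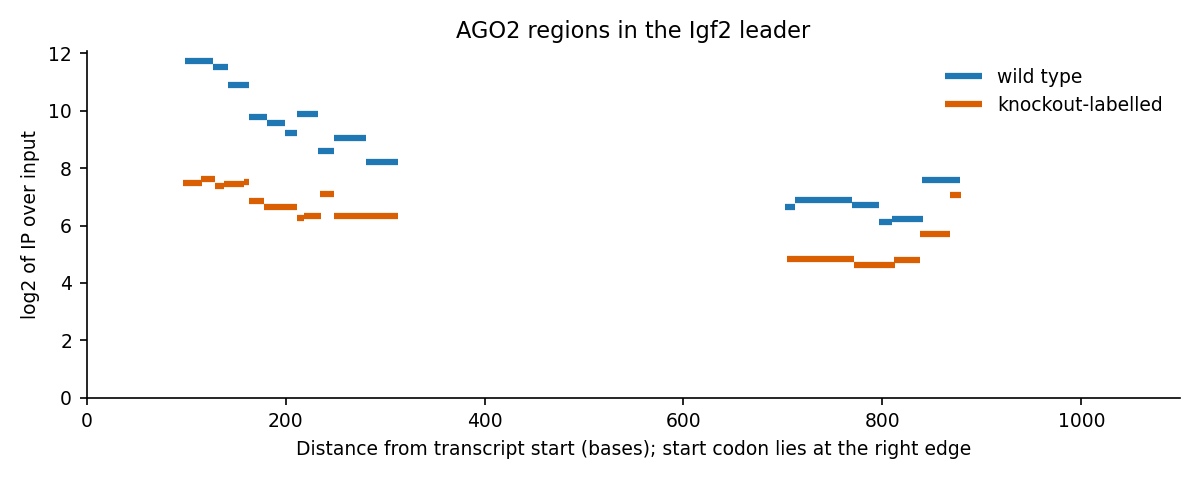
Log2 of IP over input (vertical axis) of each of the 16 wild-type and 16 knockout-labelled regions in the Igf2 leader, drawn as bars over the bases they cover from the transcript start (horizontal axis). Both libraries have a group near the transcript start and a group nearer the start codon, and the wild-type values of the first group, 8.20 to 11.73, lie above the knockout-labelled values, 6.27 to 7.61.

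Igf2 is also on the list of markers of choroid plexus and meninges. Of the other 6 markers on that list, 3 had regions of any kind in each library, with 183 IP reads in wild type and 325 in the other, or 6.02 and 6.07 per 10000 reads in regions, Igf2 left out of both. Ttr, the transthyretin gene of the choroid plexus, had an enriched 5' UTR region in wild type, with 8 IP reads against 2 input reads. Col3a1, Folr1 and Kl had no region in either library. The part of these cells in the Igf2 signal was not tested.

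Some regions that count as 5' UTR lie on small RNA genes inside leaders. There were 13 in wild type, 4 of them enriched, and 20 in the knockout-labelled library, 6 of them enriched. On 2410002F23Rik, which had the highest -log10 p of both libraries after Igf2, all 5 knockout-labelled regions and 5 of 6 wild-type regions lay on the snoRNA genes Snord88a, Gm23991 and Gm26247. The other wild-type region was on no listed small RNA gene and had 7 IP reads against 1 input read. SnoRNAs guide chemical changes of other RNAs. The log2 over input on Snord88a was 3.52 to 3.82 in wild type and 5.16 to 5.41 in the knockout-labelled library. The regions of Ccnb1ip1 lay on Rpph1, the RNA of ribonuclease P, and were below input in both libraries, at log2 -1.06 to -0.61 and -2.61 to -2.18. A Glul region of wild type lay on Mir8114, with 17 IP reads against 4 input reads.

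After Igf2, the wild-type regions with the highest -log10 p on mRNA sequence were those of Gnas, Stmn2 and Gpat4. Gnas encodes the stimulatory G protein alpha subunit and is imprinted. Its region had 66 IP reads against 14 input reads, a log2 of 4.90 (4.05 to 5.85), 104 bases before the start codon. Stmn2 encodes a tubulin-binding protein of growing axons. Its region had 48 against 9 reads, a log2 of 5.08 (4.04 to 6.29), 38 bases before the start codon. Gpat4 encodes an enzyme of glycerolipid synthesis. Its region, 773 bases before the start codon, had 57 reads against 1, a log2 of 8.50 (5.96 to 13.83). Next came Celf4 and Pou3f3, which encode an RNA-binding protein and a transcription factor of cortical neurons. They had log2 values of 3.51 (2.78 to 4.28) and 3.01 (2.39 to 3.65). Nrxn2, a presynaptic adhesion protein, had 31 against 5 reads, Ptms, a small acidic nuclear protein, 34 against 25, and Sqle, the squalene epoxidase of sterol synthesis, 26 against 1.

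The knockout-labelled library had several of the same genes at its top. Pclo, which encodes the presynaptic scaffold piccolo, had 3 neighbouring regions with 124, 91 and 123 IP reads against 17, 9 and 15 input reads. Their log2 values were 3.81, 4.28 and 3.98, and all 3 were enriched. The Gpat4 region had 81 against 2 reads, a log2 of 6.28 (4.38 to 9.35), and that of Stmn2 82 against 13 reads, a log2 of 3.60 (2.74 to 4.57). Gnas had 67 against 11 reads, and Agap2, a GTPase-activating protein of neurons, 62 against 10. Basp1, a membrane protein of growth cones, had 58 against 10 reads, at 43 bases from the transcript start. Eef1b2, a translation elongation factor subunit, had 46 against 9 reads and carries the miR-19 match printed above. Another Ptms region, 245 bases before the start codon, had 82 against 34 reads and a log2 of 2.21 (1.62 to 2.83), under the limit for enrichment.

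An enriched wild-type 5' UTR region overlapped an enriched region of the other library in 55 of 475 cases (11.6%, 8.84 to 14.8), and any region of it in 235 (49.5%). In the other direction 51 of 158 enriched knockout-labelled regions overlapped an enriched wild-type region (32.3%, 25.1 to 40.2), and 65 any region (41.1%). For 3' UTR regions the shares of enriched over enriched were 20.9% and 67.8%, with intervals that do not overlap those of 5' UTR regions. For CDS regions they were 7.85% (6.90 to 8.87) and 42.6% (38.4 to 47.0), with intervals that overlap those of 5' UTR regions. Igf2 and the small RNA genes supplied many of the shared regions. Without them the shares were 7.91% (5.60 to 10.8) and 24.3% (17.3 to 32.4). Depth also moves with overlap. Of the wild-type 5' UTR regions with 20 or more IP reads, 35 of 36 overlapped a region of the knockout-labelled library, against 600 of all 1539.

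Genes with overlapping enriched 5' UTR regions in both libraries numbered 30. In 25 of them the log2 over input was higher in wild type and in 5 it was lower. Over all 620 overlapping pairs of 5' UTR regions, enriched or not, the wild-type value was the higher one in 88.7%, by a median of 1.66. Equal IP and input reads give a log2 of 2.66 in wild type and 0.94 in the other library, because the inputs differ in depth. The part of this in the gap between libraries was not tested. Kctd13, an adaptor of a ubiquitin ligase, had 16 reads against 1 in wild type, a log2 of 6.66 (3.98 to 12.05), and 25 against 2 in the other library, a log2 of 4.58 (2.58 to 7.71). Snn, a small membrane protein, had 17 against 2 and 33 against 3 reads, with log2 values of 5.75 (3.68 to 8.91) and 4.40 (2.73 to 6.75). The intervals of both genes overlap between libraries. Sqle had 26 against 1 reads, a log2 of 7.36 (4.76 to 12.72), and 16 against 1 reads, a log2 of 4.94 (2.25 to 10.33). Sqle and Snn carry the same miR-9 heptamer, both within 30 bases of the start codon by their region midpoints. Adnp and Zcchc14 had 11 and 9 wild-type IP reads against 1 input read each, and 22 against 3 and 27 against 2 in the knockout-labelled library. Map7d1, a microtubule-associated protein, was among the 5 with a lower value in wild type, with 8 against 2 and 24 against 1 reads and log2 values of 4.66 (2.34 to 7.94) and 5.52 (2.91 to 10.89). Other shared genes were Pank3, Alcam, Ppp1cb, Rapgef1, Prkacb and Mest. Among 28 shared genes other than Igf2 and 2410002F23Rik, 18 had 1 to 3 input reads in both libraries.

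**Figure D4:**
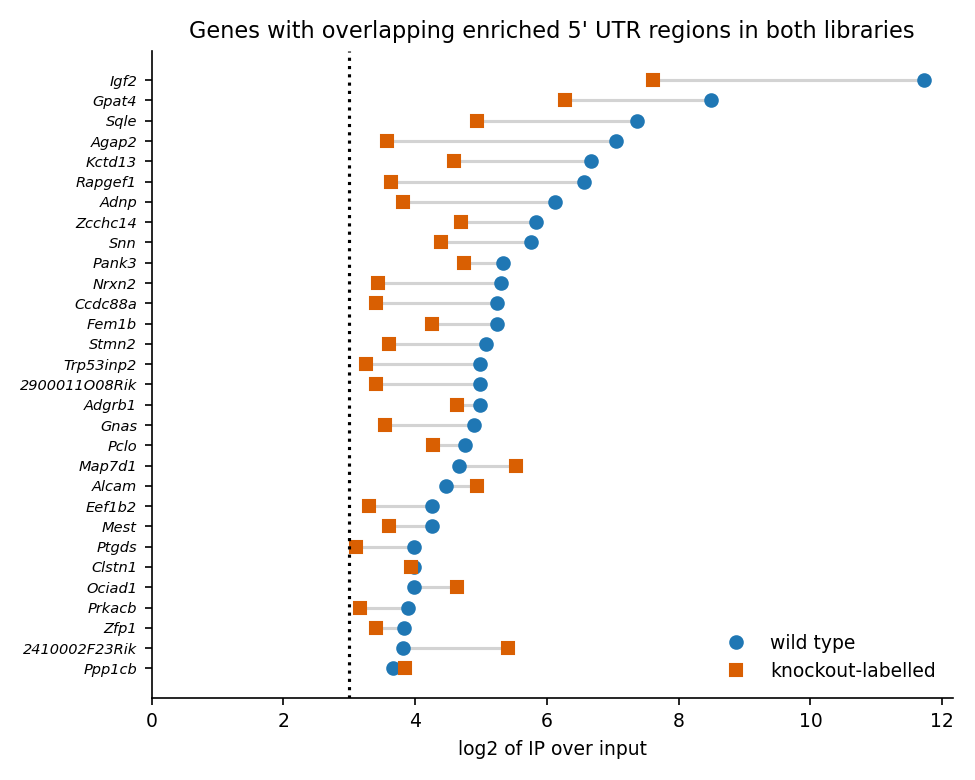
Log2 of IP over input of the 30 genes with overlapping enriched 5' UTR regions, 1 pair of regions per gene, in wild type (circles) and the knockout-labelled library (squares); the dotted line is the limit of 3. The wild-type value is the higher one in 25 genes, and Igf2 has the highest value in both libraries, 11.73 and 7.61. The part of input depth in the gap between libraries was not tested.

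Several enriched regions lay at or just before the start codon. In wild type, among regions with 10 or more IP reads, those of Zfand3 and Map2k5 had midpoints 5 bases before it, with 11 reads against 1 and 16 against 2. Ago1, which encodes another Argonaute protein, followed at 9 bases with 10 reads against 1, a log2 of 5.99 (3.17 to 11.43). Chd5, a chromatin remodeller of neurons, was at 10 bases, the splicing factor Sf1 at 13 and the axonal kinesin Kif1a at 15. In the knockout-labelled library the nearest were Dip2a at 1 base, Clstn1 at 3 and B3galnt1 at 7. They had 16 against 2, 32 against 4 and 21 against 2 reads. Clstn1, a neuronal membrane protein that links cargo to kinesin, was also the gene of one of the regions nearest the transcript start, at 41 bases, in a transcript with a leader of 44 bases. The overlapping wild-type Clstn1 region was placed on another transcript, with a leader of 214 bases, 146 bases from its start and 68 before its start codon. Other regions near the transcript start were those of Arglu1 (32 bases), Apc (33), Jpt1 (35) and Adcy5 (36) in wild type, and Nav2 (29) and Pip4k2a (39) in the knockout-labelled library. Each of these genes had a log2 of 3.64 to 4.99 on 10 to 15 IP reads.

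Gene groups are given by how many of their genes with any mRNA region had a 5' UTR region, beside the same share over all genes, 14.9% (wild type) and 28.6% (knockout-labelled). The shares with an enriched one were 5.26% and 1.52% over all genes. Of genes of the cytoskeleton and axon guidance, 25 of 43 had a 5' UTR region in wild type and 39 of 42 in the knockout-labelled library, and 6 and 3 had an enriched one. The 6 were Dcx, Dpysl2, Map2, Sptan1, Stmn2 and Tubb3. Dcx, the microtubule protein of migrating neurons, had 14 reads against 1, and Tubb3, the neuronal tubulin, 10 against 1. Transcription factors of neuron formation had 16 of 34 and 26 of 37 genes with a region, and 7 and 3 with an enriched one. Bcl11b, Meis2, Nfix, Pou3f3 and Zfhx3 were among those that passed the limits in the wild-type library, Satb1 and Sox12 in the other, and Myt1l in both. The difference between libraries was not tested for these genes. Of mRNAs known to be bound by FMRP, 11 of 30 and 24 of 30 had a 5' UTR region. Enriched ones were found on 5 and 3 genes, among them Apc, Huwe1, Kif1a and Pclo in wild type and Bsn, Nf1 and Pclo in the knockout-labelled library. Synapse and ion channel genes had 8 of 42 and 29 of 42, with 3 enriched in each, among them Nrxn2 and Pclo in both.

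Many mRNAs of ribosomal proteins and translation factors begin with a pyrimidine tract known as the TOP motif. Of the genes on this list, 12 of 32 and 16 of 47 had a 5' UTR region. Enriched ones were those of Eef1b2, Eif4g2, Rpl32 and Rps13 in wild type and of Eef1b2 in the knockout-labelled library. The Rps13 region had 13 reads against 1, a log2 of 6.36 (3.63 to 11.77), and held a let-7 match 30 bases before the start codon by its midpoint. RNA-binding and splicing genes had 14 of 42 and 23 of 46 genes with a region. Enriched ones were found on 5 and 1, among them Celf4, Hnrnpa0, Srsf2 and Srsf7 in wild type and Msi2 in the knockout-labelled library. Of genes of the miRNA pathway, 4 of 23 and 11 of 22 had a region, and Ago1 and Tnrc6c an enriched one in wild type. Chromatin regulators had 7 of 31 and 12 of 33, with 2 and 0 enriched, among them Chd5 in wild type. Genes with known control by upstream reading frames had 1 of 7 and 6 of 8, none of them enriched. Imprinted genes had 5 of 22 and 8 of 23. Gnas, Igf2 and Mest were enriched in both libraries and Inpp5f in wild type. How far expression level moves these counts was not tested.

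The sequence of 5' UTR regions was GC-rich. The median GC content was 72.1% (wild type) and 71.4% (knockout-labelled), against 54.8% and 55.2% for CDS regions and 49.1% and 50% for 3' UTR regions. Windows of 41 bases over all annotated leaders had a median of 58.5%, so these regions were more GC-rich than leaders in general. A G-quadruplex is a 4-stranded fold of guanine runs. A predicted one was sought as 4 runs of at least 3 G with loops of 1 to 7 bases. The search used the genomic sequence on the transcript strand, in the region and 50 bases on each side. These flanks were not spliced or cut at the transcript start, so a match may lie outside the leader RNA. A match was found at 148 wild-type regions (9.62%, 8.19 to 11.2) and 344 knockout-labelled regions (9.69%, 8.73 to 10.7). The shares were 1.16% and 1.39% at CDS regions and 3.15% and 2.69% at 3' UTR regions. In windows over all annotated leaders the shares were 4.09% at a width of 41 bases and 4.76% at 59, the median widths of the regions. Enriched wild-type regions had one in 14.1% of cases (11.1 to 17.6) and the others in 7.61% (6.09 to 9.37). The knockout-labelled shares were 13.9% (8.94 to 20.3) and 9.49% (8.52 to 10.5), with overlapping intervals. GC content moves with these shares, and its part in them was not tested. Matches at or beside enriched regions of 3 genes are printed with the guanine runs in capitals.
Pou3f3, chr1:42696992-42697018, plus strand: GGGGccggcGGGGacccGGGGcGGGGG
Agap2, chr10:127079498-127079525, plus strand: GGGccGGGGGctcagaGGGGtccGGGGG
Map7d1, chr4:126256152-126256167, minus strand: GGGcGGGccGGGcGGG

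Seed matches were fewer in 5' UTR regions than in the other parts of the mRNA. The heptamers that pair with bases 2 to 8 of 14 brain miRNA families were sought on the transcript strand alone, since a miRNA pairs with the RNA. The matches of miR-17, miR-19 and miR-130 can overlap. At least one was present in 84 wild-type regions (5.46%, 4.38 to 6.71) and 188 knockout-labelled regions (5.29%, 4.58 to 6.08). CDS regions had one in 8.99% and 8.14%, and 3' UTR regions in 14.8% and 14.9%. Windows over all annotated leaders had one in 3.12% at 41 bases and 4.62% at 59 bases. Of the enriched wild-type 5' UTR regions 8.42% had a match (6.08 to 11.3), against 4.14% of the others (3.02 to 5.51), and these intervals do not overlap. The knockout-labelled shares were 10.1% (5.90 to 15.9) and 5.07% (4.36 to 5.86), with intervals just apart. Enriched regions were also wider, 49.0 against 38.3 bases on average in wild type and 77.8 against 58.4 in the knockout-labelled library. Per 1000 bases there were 1.72 enriched and 1.08 other wild-type regions with a match, and 1.30 and 0.868 knockout-labelled ones. The commonest matches were TGCTGCT of miR-15/16, in 31 wild-type and 73 knockout-labelled regions, and CTACCTC of let-7, in 16 and 33. In wild type 11 of 16 let-7 regions, 4 of 7 miR-9 regions, 12 of 31 miR-15/16 regions and 3 of 11 miR-125 regions were enriched, beside 30.9% of all 5' UTR regions. The knockout-labelled counts were 3 of 33, 2 of 12, 8 of 73 and 1 of 24, beside 4.45%. Whether families differ was not tested.

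In the comparison of both IPs, 5' UTR regions with enough reads lay on both sides of 0, while the median was higher when regions with fewer reads were let in. Over the 194 regions with 20 or more reads in both IPs together, the median log2 of wild-type over knockout-labelled IP in the authors' deposited table was 0.09, with 95 of them below 0 and quartiles of -0.81 and 0.76. At CDS regions the median was 0.09 and at 3' UTR regions 0.77, in the authors' deposited table. With 10 or more reads the 5' UTR median in the authors' deposited table was 0.51, and without a read limit 1.77. Of the 46862 regions of that table, 46799 were also regions of the wild-type file, and the part of this in the higher medians was not tested.

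By the authors' deposited table, 65 of 1539 5' UTR regions (4.22%) were higher in the wild-type IP (-log10 p at least 3, log2 at least 1), against 3.39% of all regions. The share was 2.15% at CDS regions and 3.81% at 3' UTR regions, and 3.77% at 5' UTR regions without Igf2 and small RNA genes. Of the 1539, 1538 were regions called in the wild-type IP, and the part of this in the count was not tested. The 65 regions lay on 44 genes, and 7 of the 65 were on Igf2. Of the 65, 48 had under 20 reads in all, and 30 had 1 knockout-labelled read, which may stand for none. Among those with 20 or more reads, Dpysl2, a protein of axon guidance signalling, had the highest log2 in the authors' deposited table, 2.69 (1.28 to 4.32), with 17 wild-type reads against 6. Sbk1, a brain kinase, had 17 against 8 reads, Map2k5, a MAP kinase kinase, 16 against 8, and Gnas 15 against 8. Ppp2r5b, a regulatory subunit of protein phosphatase 2A, had 18 against 10 reads and Sqle 26 against 18. The Sqle region had a log2 of 1.72 (0.80 to 2.67) in the authors' deposited table. The values of Calm2, Slc25a23, Jpt1 and Rtn4 were 1.77 to 2.00 in the authors' deposited table, and their -log10 p stayed under 3. On Igf2, the 6 regions of the group near the CDS had log2 values of 1.19 to 1.37 in the authors' deposited table, and the 10 of the group near the transcript start 0.42 to 1.06.

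Lower regions have a listed p of 0 in that table, so for them a p was taken from the recovered reads. By this count 11 of 1530 5' UTR regions (0.719%) were lower in the wild-type IP at the same limits, against 0.174% of all regions, 0.123% of CDS regions and none of 8517 3' UTR regions. They lay on 7 genes, and 2 of the 11 were on snoRNA genes in 2410002F23Rik. Regions below 0 whose reads were not recovered could not be counted, here or in the other shares. Among them were the Snord88a regions of 2410002F23Rik, at log2 -2.46 to -2.43 in the authors' deposited table. Erc2, a protein of the presynaptic active zone, had 3 wild-type reads against 49, and its log2 in the authors' deposited table was -2.84 (-5.17 to -1.21). Sptbn1, a spectrin of the membrane skeleton, had 3 against 40 reads, and Mapt, the axonal microtubule protein tau, 7 against 67. Their log2 values in the authors' deposited table were -2.55 (-4.89 to -0.90) and -2.07 (-3.44 to -0.95). Pclo had 3 such regions, with 10 against 91, 17 against 143 and 14 against 104 reads, and Basp1 had 2, with 12 against 86 and 22 against 114. Fth1, Ahi1, Dnajb6, Hnrnpa2b1 and Eef1b2 had log2 values of -2.04 to -1.78 in the authors' deposited table, with a -log10 p from reads under 3.

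The direct comparison and the comparison with input do not always run the same way, and the first makes no use of the inputs. All 3 Pclo regions were enriched over input in both libraries, with log2 values of 3.99, 4.75 and 5.47 in wild type and 3.81, 4.28 and 3.98 in the knockout-labelled library. The Erc2, Mapt and Basp1 regions with lower wild-type IP reads were not enriched in wild type, where their log2 over input was 1.93, 1.30, 1.55 and 1.63. Dpysl2 was enriched in wild type, with 17 IP reads against 3, and not in the knockout-labelled library, where its 2 regions had 5 against 2 and 4 against 1 reads.

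**Figure D5:**
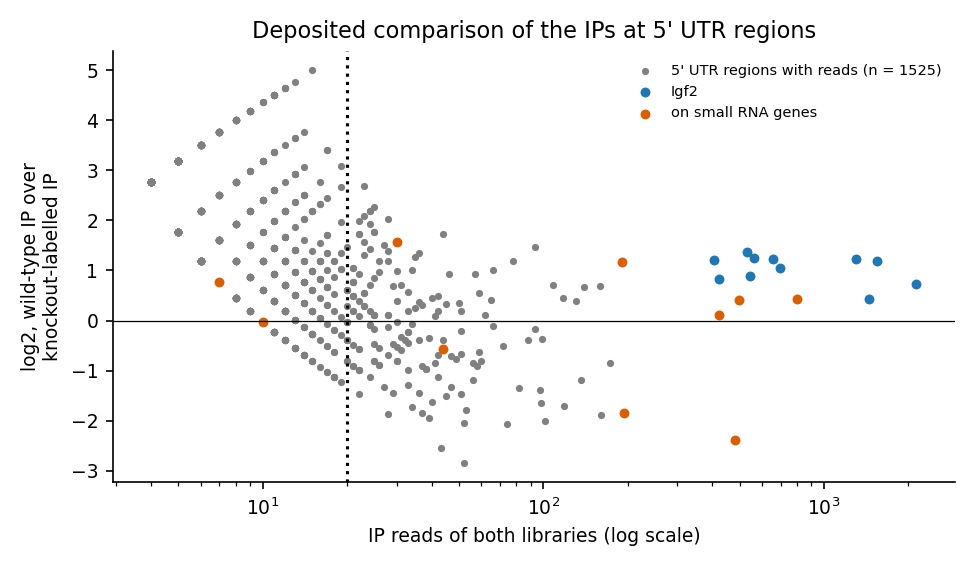
Log2 of the wild-type over the knockout-labelled IP in the authors' deposited table (vertical axis) against the IP reads of both libraries together (horizontal log axis) for the 1525 5' UTR regions with recovered reads; the dotted line marks 20 reads. Regions with few reads lie mostly above 0, while to the right of the line the values spread on both sides, with Igf2 between 0.42 and 1.37.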

How the data were processed

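Per the labels' protocols, the authors trimmed reads with Cutadapt 1.15, removed reads on mouse repeats, mapped the rest to mm10 with STAR 2.6.0c, removed PCR duplicates with UMI tools (5.2 in the labels), called clusters in each IP with CLIPper 1.4 and compared read density with the size-matched input. Per region the deposited files give a -log10 p, at most 400, and a log2, both computed by the authors. The deposited series table gives the same 2 scores for the wild-type IP over the knockout-labelled IP; how it was made is not stated.

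The midpoint of each region was placed on GENCODE M21 protein-coding transcripts (99.8% of 50507 start codons read ATG in the reference). Distances run along the spliced transcript, using a CCDS or APPRIS principal one with the longest CDS. Reads were recovered from ratio and p, for 99.5% to 99.96% of regions with a p between the bounds; the wild-type reads from both tables were equal in 42473 of 42530 regions. The recovery was tested on simulated reads whose p came from the formula that the recovery inverts. That test cannot show whether the authors' p follow this formula. Enrichment used limits of 3 and 3, the direct comparison 3 and 1. Seeds came from RefSeq, where 14 of the 15 families had a mature sequence; miR-124 was not sought. The members and lists were chosen with earlier results of these data known.

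Genes were named by rule: Fmr1; 10 per library by -log10 p; up to 20 with overlapping enriched regions; 10 highest and 10 lowest of the direct comparison with 20 or more reads; 6 per library nearest the start codon and the transcript start with 10 or more IP reads; and 4 per list. Others (such as Trp53inp2, Glul, Ccnb1ip1 and further list genes) were named after their values were seen. Some named genes are not reported here. Alternatives covered limits, transcripts, overlap, motifs and small RNA genes. Python 3 with scipy and pysam was used.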

Additional observations from a re-analysis of the deposited data

Results flagged for a closer look

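Regions of 10 genes were enriched over input in wild type, while the overlapping region of the knockout-labelled library lay below its input. Opposite signs of the log2 brought them here, and the difference was not tested. Several knockout-labelled values, such as -0.06 and -0.13, were close to the level of input. The log2 over input was 3.66 (wild type) and -0.65 (knockout-labelled) for Prkaca, a catalytic subunit of protein kinase A, with 12 wild-type IP reads against 6 input reads. For the splicing factor Sf1 the values were 3.99 and -0.49, with 15 against 6 reads in wild type. Inpp5f, an inositol phosphatase, had 4.25 and -1.06, with 9 against 3 reads. The Afdn and Asxl1 regions had wild-type values of 3.47 each and knockout-labelled values of -0.55 and -0.13. The Npdc1 region had 3.15 and -0.32, and that of Klhl7 3.25 and -0.06. Fam50a, Wdfy3 and Zfp91 each had 3.99 in wild type, on 5 IP reads against 2 input reads, and -0.06 in the knockout-labelled library. The knockout-labelled reads of these regions were not recovered, because the listed p is 0 below input.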

How the results depend on the processing

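Of 62 alternative values for 17 results, 35 stayed within 1.5 times the count or within the interval of the value, and 27 did not. Limits of 5 and 4 left 153 (wild type) and 41 (knockout-labelled) enriched 5' UTR regions, with 15.7% and 61.0% of them shared. Limits of 5 and 2 left 2 regions higher in the wild-type IP. On the transcript with the longest leader, the median distance from the transcript start was 198 and 178 bases, and that to the start codon 130 bases in the knockout-labelled library. On the nearest transcript the distances from the start were 136 and 118 bases, and that to the start codon 110 bases. Enriched knockout-labelled regions alone had medians of 177 and 159.5 bases. Overlap with any region gave 49.5% and 41.1%. Without Igf2 and small RNA genes, an alternative chosen after seeing the data, the overlap was 7.91% and 24.3%. Hexamers gave 12.1% and 14.7% with a seed match, and 20 more bases on each side 8.97% and 8.25%. Runs of 2 guanines gave 58.6% and 64.4%, and matches inside the region alone 2.73% and 2.93%. With 10 or more reads the median of the direct comparison was 0.51, and with no limit 1.77. No paired analysis was possible because each group has 1 library. Depth limits single regions: most rest on few reads, and 1 library per genotype gives no spread between animals.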

Other observations

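Of the 345 genes with an enriched 5' UTR region in wild type, 124 also had an enriched CDS region and 119 an enriched 3' UTR region, and 154 (44.6%) had neither. In the knockout-labelled library, 20 of 127 had an enriched CDS region and 24 an enriched 3' UTR region, and 87 (68.5%) had neither. Fewer regions of any kind passed the limits in that library, and the difference was not tested.

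A few leaders held several regions. Gnas had 7 regions in wild type, 3 of them enriched. Adgrl1, an adhesion G protein-coupled receptor of synapses, had 6 regions in wild type, 4 of them enriched, over 135 to 741 bases from the transcript start. Its region 741 bases from the transcript start had 9 IP reads against 4 input reads. Wdfy3, a large protein of autophagy, had 5 regions in wild type, 4 of them enriched, and 7 in the knockout-labelled library, none of them enriched. Map2, the dendritic microtubule protein, had 9 in the knockout-labelled library, none enriched. These genes were chosen after their values were seen.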
